A study of Mus musculus with 21 samples.

Results

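The genes described here are the EphB receptors *Ephb1*, *Ephb2*, *Ephb3*, *Ephb4* and *Ephb6* and the ephrin-B ligands *Efnb1*, *Efnb2* and *Efnb3*, chosen by name. They are 8 of the 52550 genes of the count table, 5 receptors and 3 ligands, and all 8 passed the filter on low counts. RNA was sequenced from mouse spiral ganglion neurons (SGNs), the neurons that carry sound information from the cochlea to the brain, at 5 ages (E15.5, P1, P8, P14, P30), from hair cells (HCs) at P12 and from cochlear glial cells at P8. Each of these 7 groups had 3 replicates, 21 libraries in all, and the strain label of every library is C57BL/6. SGNs carried *ShhCre/+* and the tdTomato reporter Ai9, *Rosa26-CAG-loxp-stop-loxp-tdTomato/+*, with *Shh*-driven Cre marking the neurons, and were picked by hand. HCs carried *Atoh1-CreER+* and Ai9 with tamoxifen at P0 and P1, and came from cochlear and vestibular organs together. Their labels give manual sorting, whereas the methods describe flow sorting. Glial cells carried *vGlut3-iCreER/+* and Ai9 with tamoxifen at P2 and P3. They were picked by hand from the ganglion area, since this Cre also marks inner hair cells. Labels give 69 to 195 cells per SGN library, 86 to 125 per glial library and about 1200 per HC library, and nothing says whether replicates were separate litters, so p-values measure the spread between these pools.

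Eph receptors are receptor tyrosine kinases, and the ephrin-B ligands that EphB receptors bind are themselves transmembrane proteins. Contact between cells can therefore signal into the receptor cell (forward) and into the ligand cell (reverse), often by repulsion, and the system is known for axon guidance, sorting of cells at boundaries and synapse formation. In the cochlea, ephrin-B2 on SGN axons and EphA4 on otic mesenchyme are known to take part in bundling of the growing axons.

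Libraries held 10368240 to 37287489 counts on genes, and 3 counts were taken as the floor that a gene at 0 can reach. Levels are given as normalized RPKM, which is counts per kilobase of gene and per 1000000 counts of the library after TMM scaling, so that they can be compared between genes and between libraries. The summed level of 8 SGN markers was 739 to 2362 in SGN libraries, 55.7 to 67.4 in HCs and 24.4 to 183 in glia. For 5 HC markers the sum was 701 to 752 in HCs and at most 88.1 elsewhere, and for 6 glial markers it was 5019 to 6912 in glia, 504 to 653 in P8 SGNs and 359 or less in every other library. Among cells that a sample could also hold, 8 endothelial markers summed to at most 53.0 in SGNs, 8 mesenchymal markers to at most 124, 8 cochlear supporting cell markers to at most 159 and 5 microglial markers to at most 4.61. In glia these 4 lists summed to 8.21 to 39.0, 228 to 379, 46.6 to 127 and 0.199 to 3.70. In HCs they summed to 1.30 to 1.80, 28.2 to 30.6, 97.1 to 121 and 0.718 to 2.09. Every glial library was thus above every SGN library in mesenchymal markers, whose part in the comparisons was not tested. Replicate 1 held the highest endothelial and mesenchymal sums among SGNs at P1, P8, P14 and P30. In bulk samples, fewer cells of a type and less RNA per cell cannot be told apart.

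As a family, the EphB receptors were at a summed level of 34.7 ± 10.8 (SD, n = 3) in E15.5 SGNs. Their sum was 24.7 ± 1.77 in P1, 16.2 ± 1.78 in P8, 9.47 ± 1.37 in P14 and 4.30 ± 0.969 in P30 SGNs. From P8 on, each age's 3 libraries lay below those of the age before. The ephrin-B ligands summed to 59.6 ± 12.3, 54.4 ± 5.65, 30.4 ± 3.86, 26.4 ± 2.36 and 24.2 ± 0.482 at the same ages. *Efnb2* made up 67.9% to 89.2% of the ligand sum at E15.5 and 95.8% to 98.4% at P30. Which receptor contributed most differed with the cell type. *Ephb3* held 44.4% to 53.6% of the receptor sum in P1 SGNs, *Ephb4* 36.6% to 45.9% in HCs and *Ephb6* 51.2% to 60.6% in glia.

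**Figure D1:**
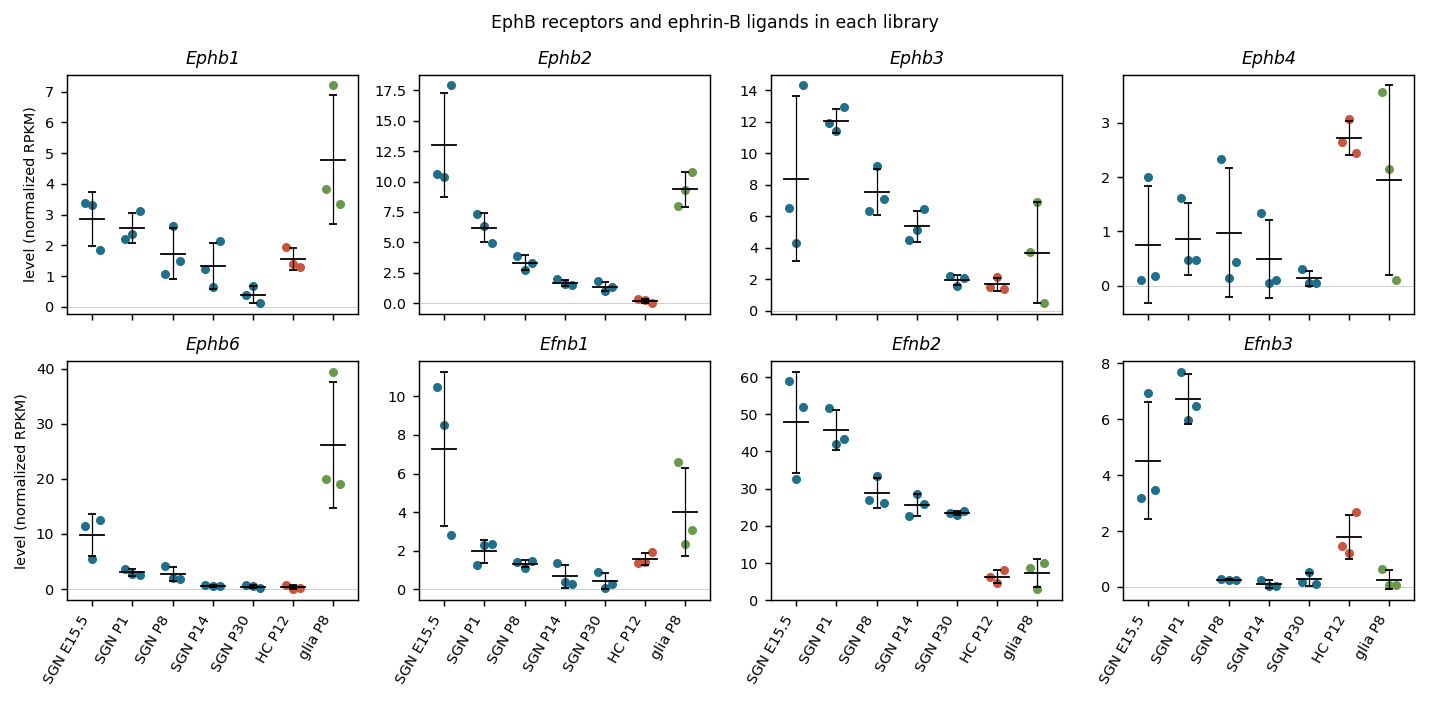
Level (normalized RPKM, linear axes) of each member in every library, with a horizontal line at the mean and an error bar of 1 SD for 3 replicates per group (SGNs in blue, HCs in red, glia in green). *Ephb2* steps down from 12.9 at E15.5 to 1.37 at P30, *Efnb3* drops from 6.73 at P1 to 0.261 at P8, and *Ephb6* is highest in glia at 26.1.

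*Ephb2* encodes a receptor kinase known for axon guidance and for its action at excitatory synapses. In SGNs its levels were 10.6, 10.4 and 17.9 at E15.5 and 7.32, 6.32 and 4.98 at P1. P8 libraries had 3.92, 2.70 and 3.32, P14 libraries 1.96, 1.54 and 1.51, and P30 libraries 1.80, 1.02 and 1.30. HC libraries had 0.311, 0.232 and 0.0192, and glial libraries 7.95, 9.33 and 10.8. The SGN ages did not overlap with their neighbors up to P14, whereas P14 and P30 did, and the HC libraries lay below all others. The lowest HC library held 6 counts of *Ephb2*. At P1, P8, P14 and P30, replicate 1 was the highest library of *Ephb2* and of the endothelial and mesenchymal marker sums. At E15.5, replicate 2 had the highest of these sums and the lowest *Ephb2*. The part of such RNA in the SGN level of *Ephb2* was not tested. From the means, the order ran from E15.5 SGNs through glia, P1, P8, P14 and P30 SGNs to HCs, and the ranges of E15.5 SGNs and glia overlapped.

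*Ephb6* encodes a receptor whose kinase domain is known to be inactive, and which signals through other Eph receptors. Its SGN levels were 11.4, 5.44 and 12.5 at E15.5, then 3.69, 2.76 and 2.60 (P1), 4.13, 1.94 and 1.90 (P8), 0.811, 0.624 and 0.458 (P14) and 0.725, 0.467 and 0.143 (P30). Glial libraries, at 20.0, 39.4 and 19.0, were above all SGN libraries. HC libraries, at 0.787, 0.0228 and 0.192, overlapped with the 2 oldest SGN ages, and the lowest of them held 2 counts. Since *Ephb6* was highest in glia, the glial markers are given beside it. Their summed level in SGNs was 38.4 to 93.7 at E15.5, where *Ephb6* was highest, and 60.2 to 97.5 at P1. Older SGNs had 504 to 653 (P8), 305 to 359 (P14) and 224 to 267 (P30). Most of the sum at P30 was *S100b*, a calcium-binding protein gene at 220 ± 27.3 (SD, n = 3) in P30 SGNs and 18.3 ± 9.91 in glia. Without it, the other 5 glial markers summed to 33.5 to 83.2 (E15.5), 15.6 to 64.3 (P1), 403 to 546 (P8), 73.5 to 196 (P14) and 2.96 to 64.4 (P30), so that they were highest at P8 and within or below the E15.5 range at P30. At P1, P8, P14 and P30, replicate 1 was the highest library of *Ephb6* and of the endothelial and mesenchymal marker sums. At E15.5, replicate 2 had the highest of these 2 sums and the lowest *Ephb6*. The part of glial, endothelial or mesenchymal RNA in the SGN level of *Ephb6* was not tested.

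*Ephb3*, a receptor kinase that often acts together with *Ephb2*, was at 6.54, 4.33 and 14.3 in E15.5 SGNs and at 11.9, 11.4 and 12.9 at P1. The later SGN libraries had 6.35, 9.16 and 7.12 (P8), 4.49, 5.13 and 6.44 (P14) and 2.20, 1.60 and 2.06 (P30). It was the highest EphB receptor of SGNs by mean level from P1 to P30. This ranking depends on the gene lengths used, 12608 bases for *Ephb2* and 6289 for *Ephb3*. By mean CPM, which does not divide by length, *Ephb2* was above *Ephb3* at P1 (81.2 and 78.9) and P30 (13.9 and 9.89), but not at P8 or P14. For *Ephb3*, P1 lay above P8 and P14 above P30 without overlap, and E15.5, with replicate 3 high, spanned both P1 and P8. HC libraries had 1.51, 2.15 and 1.39 and overlapped with P30 SGNs. In glia the values were 3.72, 6.88 and 0.494, the last of them 32 counts.

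*Ephb1*, another kinase-active receptor, had SGN levels of 3.38, 3.32 and 1.84 at E15.5, 2.19, 2.38 and 3.13 at P1 and 1.05, 2.64 and 1.49 at P8. P14 libraries were at 1.22, 0.627 and 2.13 and P30 libraries at 0.390, 0.660 and 0.123. Its values in HCs were 1.95, 1.38 and 1.29, and those in glia 3.82, 7.20 and 3.33. No neighbors in the order of its 7 group means had separate ranges. Glia had the highest mean, at 4.78 ± 2.11 (SD, n = 3), and P30 SGNs the lowest, at 0.391 ± 0.268. An antisense lincRNA, *Gm26846*, shares 152 exonic bases with *Ephb1*, and the counting is not stated to use strand, so reads of the pair cannot be told apart.

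*Ephb4*, the receptor best known from venous endothelium, where it binds ephrin-B2, varied widely within groups. SGN levels were 0.101, 2.00 and 0.178 (E15.5), 1.62, 0.480 and 0.468 (P1), 2.33, 0.151 and 0.446 (P8), 1.33, 0.0461 and 0.106 (P14) and 0.302, 0.0593 and 0.0465 (P30). At each age 1 library stood above the other 2. This was replicate 2 at E15.5 and replicate 1 at the other ages. The same 5 libraries had the highest endothelial marker sum of their age, which in order of age was 3.36, 53.0, 12.4, 3.48 and 2.03. In the other 10 SGN libraries that sum was between 0.0499 and 1.47. The 5 libraries also had the highest mesenchymal marker sum of their age, at 38.5, 101, 124, 35.5 and 22.1 in the same order. The part of endothelial or mesenchymal RNA in the SGN level of *Ephb4* was not tested. HC libraries were close together at 2.64, 3.07 and 2.45, all above every SGN library, with endothelial sums of 1.30 to 1.80. Glial libraries spread over 3.57, 2.15 and 0.105, and the lowest of them, replicate 3, had the highest endothelial sum of the 3, at 39.0. Of this sum 34.4 was the single marker *Emcn*, and 5 of the 8 markers were at or under 3 counts in that library. Without *Emcn* the glial libraries summed to 1.36, 2.35 and 4.62, and replicate 1 remained the highest SGN library from P1 to P30, as did replicate 2 at E15.5. The opposite-strand gene *Zan* shares 33 exonic bases with *Ephb4*.

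**Figure D2:**
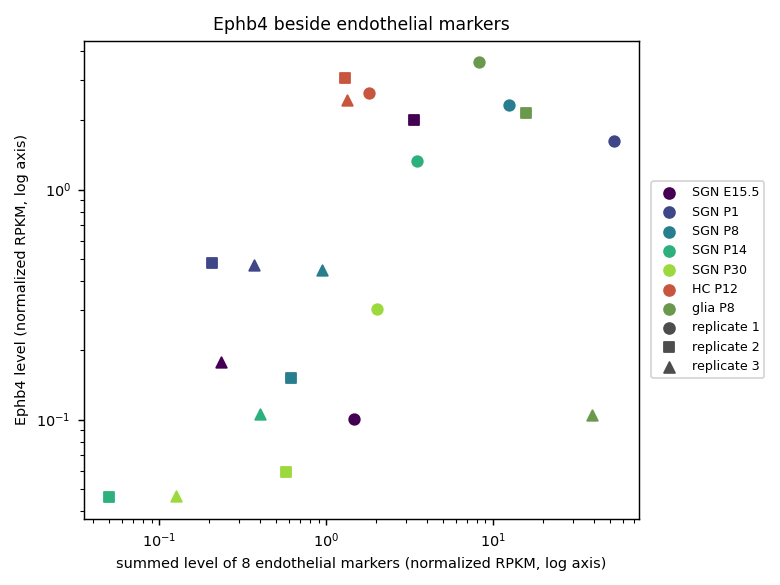
Level of *Ephb4* against the summed level of 8 endothelial markers (both normalized RPKM on log axes) in the 21 libraries, colored by group and with a symbol per replicate. In SGNs the library with the highest *Ephb4* of each age also has the highest marker sum of that age, while HCs hold 2.45 to 3.07 at marker sums of 1.30 to 1.80. Glial replicate 3 holds 0.105 at 39.0, of which *Emcn* alone is 34.4.

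*Efnb2* encodes ephrin-B2, which binds EphB receptors and also EphA4, and was the highest of the 8 genes in every SGN library. Its SGN levels were 58.9, 32.6 and 51.9 at E15.5 and 51.8, 42.0 and 43.3 at P1, then 26.9, 33.5 and 26.1 (P8), 22.6, 28.5 and 25.9 (P14) and 23.5, 23.0 and 24.0 (P30). HC libraries had 6.33, 4.67 and 8.06 and glial libraries 8.71, 2.94 and 10.1, all below every SGN library. Within SGNs the P1 libraries lay above those of P8, and no other neighboring ages had separate ranges. HCs and glia overlapped. Another 3 annotated transcripts of unknown coding status lie inside *Efnb2* on the same strand and share no exonic base with it.

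The 200 bases before the annotated start are shown for *Efnb2* and *Ephb2*. These are the ligand at the highest level in SGNs and the receptor that stepped down without overlap from E15.5 to P14. Their P30 libraries all lay below those of E15.5, as did those of every other member but *Ephb4*. The sequences are from RefSeq on GRCm38.p6, and 7 of the 8 genes had an entry. *Efnb2* is at chr8:8661243-8661442 and *Ephb2* at chr4:136836013-136836212, both on the minus strand, outside every annotated exon. Capitals mark the GC box GGGCGG, searched on both strands and allowing overlaps.
*Efnb2*: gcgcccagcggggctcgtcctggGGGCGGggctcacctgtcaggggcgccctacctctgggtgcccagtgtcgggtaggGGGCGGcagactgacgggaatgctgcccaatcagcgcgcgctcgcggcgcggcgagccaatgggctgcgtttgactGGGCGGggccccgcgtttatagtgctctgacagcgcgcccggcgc
*Ephb2*: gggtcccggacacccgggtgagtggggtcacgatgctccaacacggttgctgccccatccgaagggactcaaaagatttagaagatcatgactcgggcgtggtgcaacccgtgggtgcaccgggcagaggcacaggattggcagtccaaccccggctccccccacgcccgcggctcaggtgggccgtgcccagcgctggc
The *Efnb2* window holds 3 GC boxes and 24 CpG at 73.5% G and C, and the *Ephb2* window none of the boxes and 15 CpG at 67.0%. Among the windows not shown, those of *Ephb6*, *Ephb4* and *Ephb3* hold 4, 3 and 2 GC boxes, and those of *Ephb1* and *Efnb1* hold 0. Of 32851 promoter windows of this length in the RefSeq table, 31.0% hold at least 1 GC box. These matches describe the letters of the windows and say nothing about a factor.

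*Efnb3* encodes ephrin-B3, known as a repellent for axons at the midline. It was at 3.18, 6.93 and 3.46 in E15.5 SGNs and 7.70, 5.99 and 6.49 at P1. At P8 the libraries had 0.291, 0.251 and 0.242, at P14 0.257, 0.0336 and 0.0194 and at P30 0.168, 0.536 and 0.102, on 1 to 31 counts each. Every SGN library of E15.5 and P1 was therefore above every later one. HC libraries had 1.47, 1.22 and 2.69, between the younger and the older SGNs without overlap. Glial libraries had 0.652, 0.0550 and 0.0610, and 2 of them held 2 counts.

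*Efnb1*, the X-linked gene of ephrin-B1, was at 10.5, 8.54 and 2.82 in E15.5 SGNs. Later libraries had 1.27, 2.28 and 2.32 (P1), 1.41, 1.10 and 1.46 (P8), 1.35, 0.372 and 0.250 (P14) and 0.869, 0.0638 and 0.281 (P30). E15.5 lay above P1 in all libraries, and each later age overlapped with its neighbor. In HCs the levels were 1.34, 1.43 and 1.92, and in glia 6.58, 2.33 and 3.09. Glia lay above HCs and above all SGNs from P1 on, and overlapped with E15.5. Replicate 1 was the highest library at P14 and P30, as it was for the endothelial and mesenchymal marker sums, whose part in these values was not tested.

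Changes with age were tested with limma-voom on the 15 SGN libraries and 15113 genes, and a gene was called at a change above 2-fold with an adjusted p below 0.05. From E15.5 to P30, 6 of the 8 members fell and none rose, where 16.2% of all genes tested were called lower and 18.4% higher. The median change of the members was -3.15 on the log2 scale, beside -0.01 for all genes. *Ephb6* fell by 4.54 (SE 0.77, adjusted p = 0.00021), *Efnb1* by 4.40 (SE 0.99, adjusted p = 0.0021) and *Efnb3* by 4.39 (SE 0.77, adjusted p = 0.00031). The receptors *Ephb2*, *Ephb1* and *Ephb3* fell by 3.21 (SE 0.33, adjusted p = 1.7e-06), 3.08 (SE 0.70, adjusted p = 0.0024) and 1.95 (SE 0.44, adjusted p = 0.0023). In these 6 genes all 3 P30 libraries were below all 3 E15.5 libraries. So were they for *Efnb2*, whose change of -1.0 (SE 0.20, adjusted p = 0.00094) was 1.99-fold and so missed the fold threshold, which it passed under 13 alternatives. *Ephb4* changed by -1.76, with a 95% interval from -5.28 to 1.76 that leaves its direction unresolved.

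The steps between neighboring ages differed between members, as did the share of all genes called in them. From E15.5 to P1, 2 members fell and none rose, with 3.18% of all genes called lower and 5.08% higher. These were *Ephb2* by 1.02 (SE 0.23, adjusted p = 0.0094) and *Ephb6* by 1.56 (SE 0.40, adjusted p = 0.019), each lower in all 3 libraries. Neither call held without P1 replicate 3, where the adjusted p was 0.035 at a change of -0.92 for *Ephb2* and 0.054 for *Ephb6*. With no filter on low counts *Ephb2* was just under 2-fold (-0.99), and with edgeR *Ephb6* missed the p threshold (adjusted p = 0.057). *Efnb1* was also lower in all 3 libraries, by a change of -1.74, but its adjusted p of 0.052 missed the threshold, and without E15.5 replicate 3, its lowest library of that age, the values were -2.36 and 0.0069. Leaving out the same library ended the calls of *Ephb2* (-0.75, adjusted p = 0.044) and *Ephb6* (-1.30, adjusted p = 0.066), and *Ephb6* was also not called without P1 replicate 2 (-1.54, adjusted p = 0.064). For *Ephb3* the change was 0.69 (adjusted p = 0.15), and without E15.5 replicate 3, its highest library, it was called higher at 1.22 (adjusted p = 0.013). *Efnb2* did not differ detectably between these ages, with a 95% interval from -0.39 to 0.38.

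From P1 to P8, *Efnb3* fell by 4.67 (SE 0.67, adjusted p = 0.00028), a 25.4-fold change, and was the 1 member called, with 3.15% of all genes called lower and 4.29% higher. *Ephb2*, at -0.92 (adjusted p = 0.029), and *Efnb2*, at -0.67 (adjusted p = 0.025), passed the p threshold without reaching 2-fold, and both were lower in all 3 libraries. *Ephb2* was called without P1 replicate 3 (-1.06, adjusted p = 0.027) or without P8 replicate 1 (-1.07, adjusted p = 0.035). The glial marker sum went from at most 97.5 at P1 to at least 504 at P8, opposite in direction to these 3 genes and also so without *S100b*, and its part in the values was not tested.

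No member was called from P8 to P14, where 0.536% of all genes were called in either direction, or from P14 to P30, where 0.0596% were. At an unadjusted p below 0.05, *Ephb2* (-0.96) and *Ephb6* (-2.00) were lower from P8 to P14 and *Ephb1* (-1.87) and *Ephb3* (-1.44) from P14 to P30. Apart from *Ephb1*, these were lower in all 3 libraries of the later age. With DESeq2, *Ephb6* was called from P8 to P14 (-2.05, adjusted p = 0.013) and *Ephb3* from P14 to P30 (-1.48, adjusted p = 0.011), and edgeR called none in either step. *Efnb2* had intervals from -0.59 to 0.26 and from -0.60 to 0.29 in these steps. The 5 age comparisons share libraries, so they are not independent of each other.

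**Figure D3:**
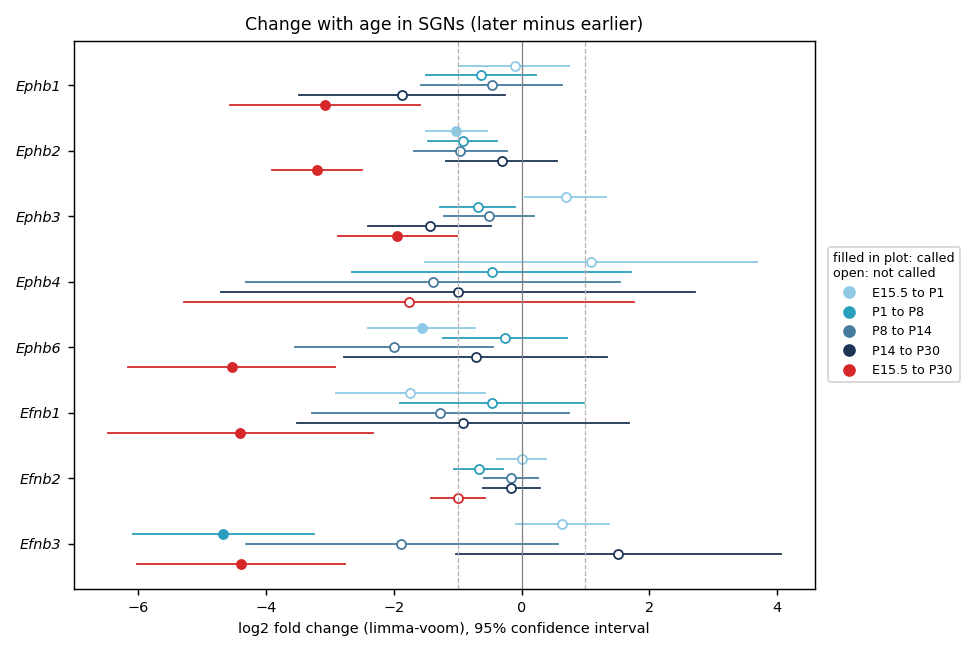
Log2 fold change of each member between SGN ages (later minus earlier), with 95% confidence intervals from limma-voom on 3 libraries per age, filled where called and open where not, and dashed lines at a 2-fold change. In the comparison of E15.5 with P30 (red), 6 members are filled, between -1.95 and -4.54, and *Efnb2* sits on the dashed line at -1.0.

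SGNs were compared with HCs and glia in a fit of all 21 libraries and 17531 genes, with a gene called at a change above 4-fold and an adjusted p below 0.01. The mean of SGN ages in this fit was the mean of the 5 age means on the log2 scale. Against HCs, the mean of the 5 SGN ages was higher for 3 members, with 10.5% of all genes called higher, and lower for 1, with 16.2% called lower. *Ephb2* was higher by 5.05 on the log2 scale (SE 0.75, adjusted p = 8.5e-06), *Efnb2* by 2.38 (SE 0.29, adjusted p = 5.3e-07) and *Ephb6* by 3.47 (SE 0.93, adjusted p = 0.0037). The libraries of SGNs and HCs did not overlap for the first 2 of these genes and did for *Ephb6*, whose call was lost without HC replicate 2 (2.26, adjusted p = 0.055) or without HC replicate 3 (3.64, adjusted p = 0.017). With library size alone in place of TMM, *Efnb2* (1.83) and *Ephb6* (2.91, adjusted p = 0.013) were not called. *Ephb4* was lower in SGNs by a change of -3.09 (SE 0.72, adjusted p = 0.0012), in all libraries. It did not pass with edgeR (adjusted p = 0.035) or DESeq2 (adjusted p = 0.017). *Ephb3*, at 1.82 (adjusted p = 0.0056), missed the fold threshold, and *Ephb1* had an interval from -1.05 to 0.71.

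At the nearest ages, P14 SGNs against P12 HCs, 2 members were higher, with 10.9% of all genes called higher, and 1 was lower, with 12.2% called lower. *Ephb2* was higher by 3.95 (SE 0.82, adjusted p = 0.00051). *Efnb2* was higher by 2.03 (SE 0.33, adjusted p = 4.5e-05), a 4.08-fold change just inside the threshold, without overlap between libraries, and fell under 4-fold in 15 alternatives, at 0.75 to 1.99. *Efnb3* was lower in SGNs by a change of -4.62 (SE 0.92, adjusted p = 0.00037), in all libraries. Against the mean of all SGN ages the same gene had a change of -1.40 (adjusted p = 0.032) and overlapping libraries, with E15.5 and P1 SGNs above HCs. That change averages log values, and the arithmetic mean level of *Efnb3* was higher in SGNs (2.38) than in HCs (1.79). *Ephb4* was also lower than in HCs in all 3 P14 libraries, at -3.70, with an adjusted p of 0.023 that missed the threshold.

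Against glia, the mean of the SGN ages was higher for 1 member and lower for 1, with 14.3% of all genes called higher and 10.4% lower. *Efnb2* was higher by 2.30 (SE 0.33, adjusted p = 9.4e-06) and *Ephb6* lower by a change of -3.77 (SE 0.35, adjusted p = 2.0e-08), both without overlap. At P8 in both cell types the same 2 genes were called, where 13.4% of all genes were called higher and 7.53% lower. *Efnb2* was at 2.12 (SE 0.36, adjusted p = 8.7e-05) and *Ephb6* at -3.25 (SE 0.49, adjusted p = 2.4e-05). Without glial replicate 2, in which *Efnb2* was lowest, its difference was 1.83 for the SGN mean and 1.65 at P8, and it was below 4-fold in both. At P8 it was also below 4-fold with edgeR (1.99) and DESeq2 (1.89). Glial replicates bore on 2 further genes. *Ephb4*, at -1.81 for the SGN mean (adjusted p = 0.14), was called lower without glial replicate 3 (-3.16, adjusted p = 0.0021), and *Efnb1*, at -1.75 (adjusted p = 0.011), without glial replicate 2 (-2.05, adjusted p = 0.0063). *Ephb2* at P8 was lower in SGNs than in glia in all libraries, at -1.47 (adjusted p = 0.00085), and *Ephb1* likewise at -1.47 (adjusted p = 0.012), without reaching 4-fold. SGN libraries of P8 held glial markers at summed levels of 504 to 653, beside 5019 to 6912 in glia, or 403 to 546 beside 5012 to 6886 without *S100b*, and nothing was subtracted for them.

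HCs and glia differed in 3 members, 1 higher in HCs, with 16.2% of all genes called higher, and 2 lower, with 8.18% called lower. *Ephb6* was lower in HCs by a change of -7.24 (SE 0.93, adjusted p = 3.5e-06) and *Ephb2* by -6.39 (SE 0.77, adjusted p = 1.8e-06). *Efnb3* was higher in HCs by 3.45 (SE 0.90, adjusted p = 0.0040), and this call did not pass with edgeR (2.75, adjusted p = 0.026), with sample quality weights (adjusted p = 0.083), with HC and glial libraries alone (adjusted p = 0.015) or without HC replicate 3, glial replicate 2 or glial replicate 3. The ranges of HCs and glia were separate for these 3 genes. *Efnb2* had a difference of -0.08, with an interval from -0.98 to 0.81. The comparisons of cell types share the SGN, HC or glial libraries with each other.

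**Figure D4:**
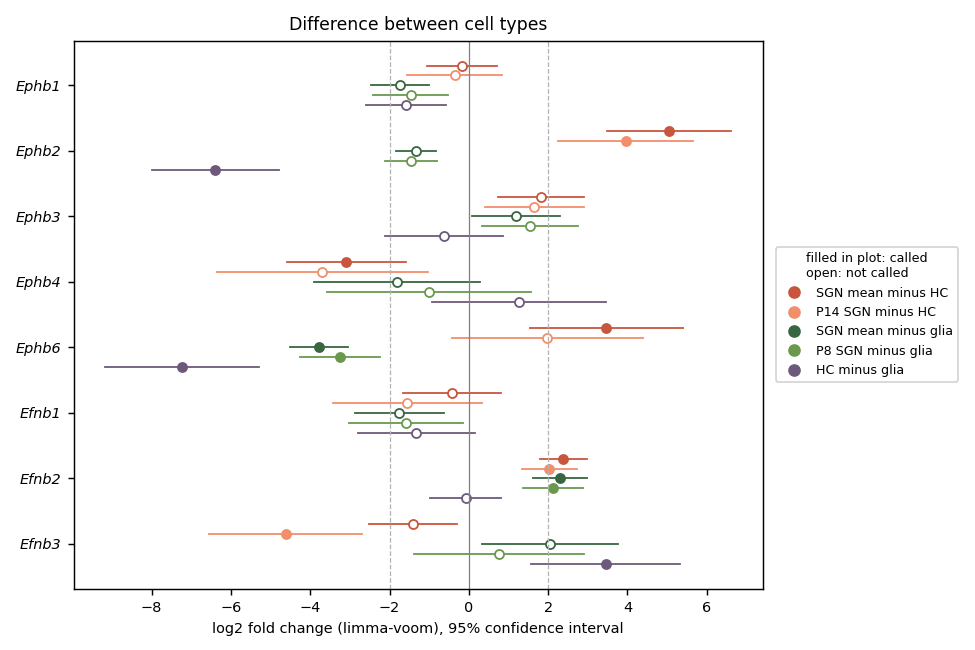
Log2 difference of each member between cell types, with 95% confidence intervals from limma-voom on 21 libraries, filled where called and open where not, and dashed lines at a 4-fold change. *Efnb2* lies right of the line at 2.03 to 2.38 in the 4 comparisons of SGNs with another cell type, and *Ephb6* lies left of it at -3.25 to -7.24 in the 3 comparisons with glia.

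A list of 46 other genes of the pathway was written from general knowledge, 24 forward and 12 reverse signalling partners, 8 enzymes of cleavage and dephosphorylation and 2 binding partners from the other class, *Epha4* and *Efna5*. All were tested. From E15.5 to P30, 4 rose and 9 fell, beside the 18.4% and 16.2% of all genes given above. *Synj1*, the phosphatase synaptojanin that acts in endocytosis, rose by 2.39 (adjusted p = 2.8e-08), *Grin1*, a subunit of NMDA receptors, which EphB2 binds, by 2.33 (adjusted p = 1.7e-07), and *Sdcbp*, the PDZ adaptor syntenin, by 1.72 (adjusted p = 0.00014). *Ptpro*, a phosphatase known to act on Eph receptors, fell by 4.37 (adjusted p = 1.6e-05), *Arhgef15*, the exchange factor ephexin5, by 2.51 (adjusted p = 0.012), and *Ptpn1*, another phosphatase, by 2.17 (adjusted p = 0.00044).

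Partners called in single steps are given beside the share of all genes called. From E15.5 to P1, only *Grin1* was called, rising by 1.29 (adjusted p = 0.0012), beside 5.08% of all genes called higher and 3.18% lower. From P1 to P8, 1 rose and 3 fell, beside 4.29% and 3.15% of all genes. *Ptpn13*, a PDZ phosphatase of ephrin-B, rose by 1.34 (adjusted p = 0.041). *Arhgef15* fell by 1.83 (adjusted p = 0.012), *Ptpro* by 1.75 (adjusted p = 0.0013) and the ephrin-B binding regulator *Rgs3* by 1.53 (adjusted p = 0.014). *Sdcbp* rose by 1.15 from P8 to P14 (adjusted p = 0.045), where 0.536% of all genes were called in either direction. None of the 46 was called from P14 to P30, where 0.0596% of all genes were.

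Between cell types, the mean of SGN ages was higher than HCs for 7 of the 46 partners and lower for 2, beside 10.5% and 16.2% of all genes. *Arhgef15* had 0 counts in all 3 HC libraries. Its arithmetic mean level over the SGN libraries, 2.15, was at least 97.8-fold that of HCs, taking 3 counts per HC library as the floor. The bound was 261-fold at P1 and 8.09-fold at P14, the age nearest to that of the HCs. At P1 the libraries ran from 2.83 to 9.47 in *Arhgef15* and from 0.208 to 53.0 in the endothelial marker sum. The part of endothelial RNA in its SGN level was not tested. *Ptpro* was higher by 5.63 (adjusted p = 8.6e-05) and *Grin1* by 5.22 (adjusted p = 1.4e-07). *Dock1*, an exchange factor that can act in ephrin-B reverse signalling, was lower at -3.93 (adjusted p = 2.5e-07), and *Ptpn13* at -2.41 (adjusted p = 1.3e-07). Against glia, 8 partners were higher and 5 lower, beside 14.3% and 10.4% of all genes. Among the higher were *Arhgef15* at 5.33 (adjusted p = 0.00012), *Ptpro* at 4.60 (adjusted p = 0.00072) and *Grin1* at 3.85 (adjusted p = 3.4e-06). For *Arhgef15*, 2 glial libraries were at or under 3 counts. Among the lower were *Dock1* at -5.15 (adjusted p = 4.1e-09), *Ptpn13* at -4.35 (adjusted p = 2.8e-12) and the syndecan gene *Sdc2* at -3.24 (adjusted p = 2.2e-05). At P8, 9 were higher and 5 lower than in glia, beside 13.4% and 7.53% of all genes. P14 SGNs had 6 higher and 2 lower than HCs, beside 10.9% and 12.2%. Between HCs and glia, 3 were higher and 4 lower, beside 16.2% and 8.18%, the largest differences being *Psen2* of the gamma-secretase complex at 4.20 (adjusted p = 0.00015) and the scaffold gene *Git1* at -4.07 (adjusted p = 7.2e-08). *Epha4*, whose product binds ephrin-B2, was above glia in SGNs at 2.74 (adjusted p = 6.3e-05) and in HCs at 2.50 (adjusted p = 0.00046), so that both partners of this pair were higher in SGNs than in glia.

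For each member, the genes with the closest pattern were found by Pearson's r of log2(TPM + 1) over the 21 libraries, which share depth and cell type differences. The closest was *Gng2* for *Ephb2* (r = 0.973), *Cacnb3* for *Efnb2* (r = 0.951), *Sft2d2* for *Ephb4* (r = 0.948), *Ly6h* for *Efnb3* (r = 0.936), *Rpl15-ps2* for *Ephb1* (r = 0.932), *Lrrn3* for *Ephb3* (r = 0.927), *Vim* for *Ephb6* (r = 0.927) and *Tspan6* for *Efnb1* (r = 0.909). With normalized RPKM in place of TPM, the closest gene stayed *Gng2* (r = 0.977), *Lrrn3* (r = 0.911), *Ly6h* (r = 0.919) and *Tspan6* (r = 0.879) for 4 members and changed to *Ddx39b* (r = 0.954) for *Ephb6*, *Vwa5b2* (r = 0.968) for *Efnb2*, *Gpc4* (r = 0.899) for *Ephb4* and *Rad54l2* (r = 0.870) for *Ephb1*.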

How the data were processed

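The authors mapped reads to mm10 with STAR 2.4.0i and counted them per gene with featureCounts, per the methods and the submitters' processing notes. They deposited raw counts, not normalized, for 21 libraries, with a length per gene. Strand, multimapping and pair settings are not given in the sources used here, and a median of 67.9% of counts from 1 to 20 were even, so reads rather than pairs may be counted. cDNA had been amplified with the Ovation kit, so limits from counts cover counting error only. Symbols and positions were matched from the GENCODE annotation of GRCm38. Members and lists were chosen with earlier results of these data known.

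Counts were normalized with TMM (edgeR 4.0.16) and tested with voom and moderated statistics in limma 3.58.1 under R 4.3.3, two-sided, with Benjamini-Hochberg adjustment over the genes that exceeded 1 CPM in each replicate of some group. The authors' methods name this test and its thresholds. DESeq2 1.42.0, edgeR's quasi-likelihood test, other scalings and filters, and leaving out each library were alternatives. The code was tested on simulated data. Named genes were the 8 members, up to 3 called pathway genes per direction and comparison, and the closest patterns.

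Levels had been planned as TPM. *Gm23935*, an annotated gene of 57 bases, held 8.17% to 68.1% of the summed TPM in SGNs, 20.0% to 27.2% in HCs and 57.8% to 64.0% in glia, and TPM differed from TMM-scaled values by -0.32 to 1.90 on the log2 scale between libraries. Levels are therefore counts per kilobase and 1000000 TMM-normalized counts, a choice made after seeing the data, as were the marker sums without *S100b* or *Emcn* and the *Arhgef15* bounds by age. Pairing was checked by correlating same-numbered libraries' deviations from their group means. For the step from P14 to P30 all 3 r exceeded 0.1 (0.38, 0.27 and 0.16), but for no other step. Between P8 and P30, which are not neighbors, all 3 also did (0.39, 0.23 and 0.18). Replicate 1 had r = 0.38 both from P1 to P8 and from P8 to P14, and -0.076 from E15.5 to P1.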

Additional observations from a re-analysis of the deposited data

How the results depend on the processing

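Of 80 member comparisons, 23 were called, and 13 of these calls held under every alternative run, among them all 6 from E15.5 to P30, *Efnb3* from P1 to P8, and *Ephb6* against glia in each of its 3 comparisons. No direction of a called member was reversed.

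The number of members called from E15.5 to P1 was 2, and became 1 with edgeR, without the filter on low counts and with the libraries of these ages alone, and 0 under TPM scaling, an alternative chosen after seeing the data. It became 3 with the size factors of DESeq2 in voom, with library size alone and with the replicate block, through *Efnb1*. From P1 to P8 it was 1 and became 2 with library size alone. From P8 to P14 it was 0 and became 1 with DESeq2, and from P14 to P30 it was 0 and became 1 with DESeq2 or with sample quality weights. The SGN mean against HCs gave 4, and 2 with library size alone, where all genes called were 4694 and 5117. P8 SGNs against glia gave 2, and 1 with edgeR or DESeq2, where all genes called were 3662, 2889 and 4133. Leaving out each library gave 0 to 3 members from E15.5 to P1, 1 to 2 from P1 to P8, 0 to 0 in both later steps, 6 to 7 from E15.5 to P30, 3 to 4 for the SGN mean against HCs, 2 to 3 against glia, 2 to 3 for P14 SGNs against HCs, 1 to 2 for P8 SGNs against glia and 2 to 3 for HCs against glia. Pathway genes called ranged over all alternatives from 1 to 4 (1 in the main analysis) from E15.5 to P1, 1 to 5 (4) from P1 to P8 and 0 to 2 (1) from P8 to P14. All genes called from E15.5 to P1 were 1248 of 15113, and 1192 with edgeR and 1180 of 34901 tested without the filter. With the libraries of these ages alone they were 576 of 14269, and under TPM scaling 643. They were 1225 with the size factors of DESeq2, 1218 with library size alone and 1448 with the replicate block. From P1 to P8 they were 1124, and 1181 with library size alone. From P8 to P14 they were 81, and 219 with DESeq2. From P14 to P30 they were 9, and 97 with DESeq2 or 110 with sample quality weights. The cause of these changes was not tested.

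With the replicate block, no member was called from P14 to P30, and 23 genes were called in place of 9. This was the step in which all 3 r of same-numbered libraries exceeded 0.1, and library labels give a replicate number only. Elsewhere the block added *Efnb1* from E15.5 to P1 (-2.09, adjusted p = 0.014) and *Efnb2* from E15.5 to P30 (-1.01), and lost *Efnb2* in P14 SGNs against HCs (1.99).

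Scaling shifts the median of all genes. Against HCs the median was 0.02 for the SGN mean, -0.54 with library size alone and -1.33 under TPM scaling. *Efnb2* was then at 2.38, 1.83 and 1.05, which relative to those medians is 2.36, 2.37 and 2.38. The share of called genes that were higher went from 39.3% to 26.0% and 13.2%. With library size alone and TPM scaling, it went from 47.2% to 27.0% and 15% for P14 SGNs against HCs, from 66.4% to 77.8% and 92.3% for HCs against glia, from 61.5% to 46.7% and 93.3% from E15.5 to P1 and from 57.7% to 35.6% and 31.2% from P1 to P8. With library size alone it went from 53.2% to 29.9% from E15.5 to P30 and from 46.9% to 26.0% from P8 to P14. *Efnb3* at P14 and P30 and *Ephb4* in SGNs include libraries of under 10 counts, as do *Efnb1* at P30, *Ephb2* and *Ephb6* in HCs and *Ephb4* and *Efnb3* in glia, which limits the size of their fold changes. The order of neighboring groups, where their ranges were separate, changed in 0 of 12 cases with CPM and in 2 with TPM. In mean TPM, *Efnb3* was lower in E15.5 SGNs (5.79) than in HCs (6.49), and *Ephb2* was lower in glia (10.5) than in P1 SGNs (11.8).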
